A study of Homo sapiens with 12 samples.

Results

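Cells of the A375 line, which was established from a human melanoma with metastases, were exposed for 24 h to 5 μM of rosiglitazone (RGZ) or to its solvent DMSO, and RNA was sequenced from 3 libraries of each condition. The comparison of these 6 libraries, matched by the number of the experiment they came from, is described here gene list by gene list. The series held 12 libraries in all, and the other 6 came from cells given 2 μM of the antagonist T0070907, alone or together with RGZ, in the same 3 independent experiments. Cells of all conditions were grown in DMEM with fetal bovine serum between passages 30 and 32, DMSO was kept at a dilution of 1 to 10000, and each library was made from RNA of several technical replicates, combined within its experiment. A single line was used, so the libraries describe A375 cells and not melanoma cells at large.

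RGZ is a thiazolidinedione, an insulin sensitizer that binds and activates PPARγ. PPARγ is a nuclear receptor that pairs with a retinoid X receptor on DNA and raises the transcription of genes for the uptake, storage and oxidation of fatty acids. It directs fat cell differentiation, and its agonists also lower some transcripts, often those driven by other transcription factors. Melanoma cells differ in the melanocyte program they retain, and their growth factor, matrix and adhesion genes vary with that state.

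The total count was between 8319455 and 8687191 in the vehicle libraries and between 9001174 and 10096418 in the RGZ libraries, and a count of 3 corresponded to 0.305 to 0.357 CPM (counts scaled to library size, after TMM scaling between libraries). Libraries of the same experiment deviated together from the mean of their condition, with a correlation across genes of 0.393 to 0.743 for the 3 pairs of RGZ and vehicle. The experiment number was therefore kept as a term of the model (the replicate block). Of 13522 tested genes, 1258 (9.3%) passed the threshold of 0.05 on the Benjamini-Hochberg adjusted p-value of the quasi-likelihood F test in edgeR, and these are referred to as called. Called higher with RGZ were 670 genes (4.95%) and called lower 588 (4.35%). The direction was the same in all 3 experiments for 1256 of them. Without the block, 167 genes (1.24%) were called, 128 higher and 39 lower, and all 167 were among the 1258. The number called was 2758 in a fit of the 6 RGZ and vehicle libraries alone. It fell when libraries of the comparison were left out, to 717 without the vehicle library of experiment 3, to 761 and 827 without the RGZ libraries of experiments 2 and 3, and to 400 without experiment 3 altogether. The changes were mostly small. The median log2 fold change was 0.47 among the genes called higher and -0.50 among those called lower, against -0.01 over all tested genes, and 118 genes rose and 93 fell by more than 2-fold. Below, every adjusted p-value comes from this test with the block, each SE is approximate, and log2 fold changes are RGZ minus vehicle.

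Among the largest increases, *CREB3L3*, which encodes a membrane-bound transcription factor of the endoplasmic reticulum known from liver and intestine, had 0.341, 0.476 and 0.706 CPM with vehicle and 11.2, 14.8 and 10.5 CPM with RGZ in experiments 1 to 3. Every RGZ library lay far above every vehicle library (log2 fold change 4.55, SE 0.32, adjusted p = 4.38e-08). *AREG*, which encodes the EGF receptor ligand amphiregulin, had 0.454, 0.952 and 0.353 CPM with vehicle and 8.63, 19.9 and 8.63 CPM with RGZ (log2 fold change 4.37, SE 0.26, adjusted p = 4.38e-09). For both genes the vehicle counts were low, and the ratio of the summed counts, scaled for depth, was 23.9 for *CREB3L3* (95% exact interval 13.8 to 45.3) and 20.8 for *AREG* (12.4 to 37.5), intervals that cover counting error only. *PDK4*, a kinase that switches off pyruvate dehydrogenase, rose from 7.95, 8.92 and 11.6 CPM with vehicle and 52.1, 65.8 and 70.1 CPM with RGZ (log2 fold change 2.73, SE 0.18, adjusted p = 2.33e-08). *PTGES*, the enzyme that makes prostaglandin E2, had 11.8, 24.6 and 14.8 CPM with vehicle and 65.2, 189 and 89 CPM with RGZ (log2 fold change 2.69, SE 0.15, adjusted p = 2.75e-09). Experiment 2 gave the highest *AREG* and *PTGES* levels in both conditions, and the groups did not overlap. *TSPAN12*, a tetraspanin, had 11.9, 9.52 and 17.4 CPM with vehicle and 68.1, 73.4 and 107 CPM with RGZ (log2 fold change 2.69, SE 0.15, adjusted p = 1.38e-09).

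*S100P*, a small calcium-binding protein, had 1.25, 2.74 and 1.88 CPM with vehicle and 8.01, 23.9 and 12.5 CPM with RGZ (log2 fold change 2.89, SE 0.30, adjusted p = 3.39e-06), and *LYPD3*, a lipid-anchored surface protein, had 4.88, 13.3 and 8.24 CPM with vehicle and 31.8, 63.1 and 48.9 CPM with RGZ (log2 fold change 2.46, SE 0.13, adjusted p = 8.62e-10). *TFF2*, a secreted trefoil peptide of mucosal surfaces, had 3.63, 5 and 4.71 CPM with vehicle and 20.9, 22.5 and 18.4 CPM with RGZ (log2 fold change 2.21, SE 0.17, adjusted p = 1.22e-07). In these 3 genes every RGZ library was above every vehicle library, as in 9.2% of all tested genes. *AKR1C1*, an aldo-keto reductase of steroid metabolism, had 1.59, 1.67 and 3.53 CPM with vehicle and 7.9, 17.6 and 9.24 CPM with RGZ (log2 fold change 2.32, SE 0.27, adjusted p = 1.41e-05). Its sequence is close to that of other AKR1C genes, so its value is uncertain where reads were shared between them. All of these increases were also called without the block.

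**Figure D1:**
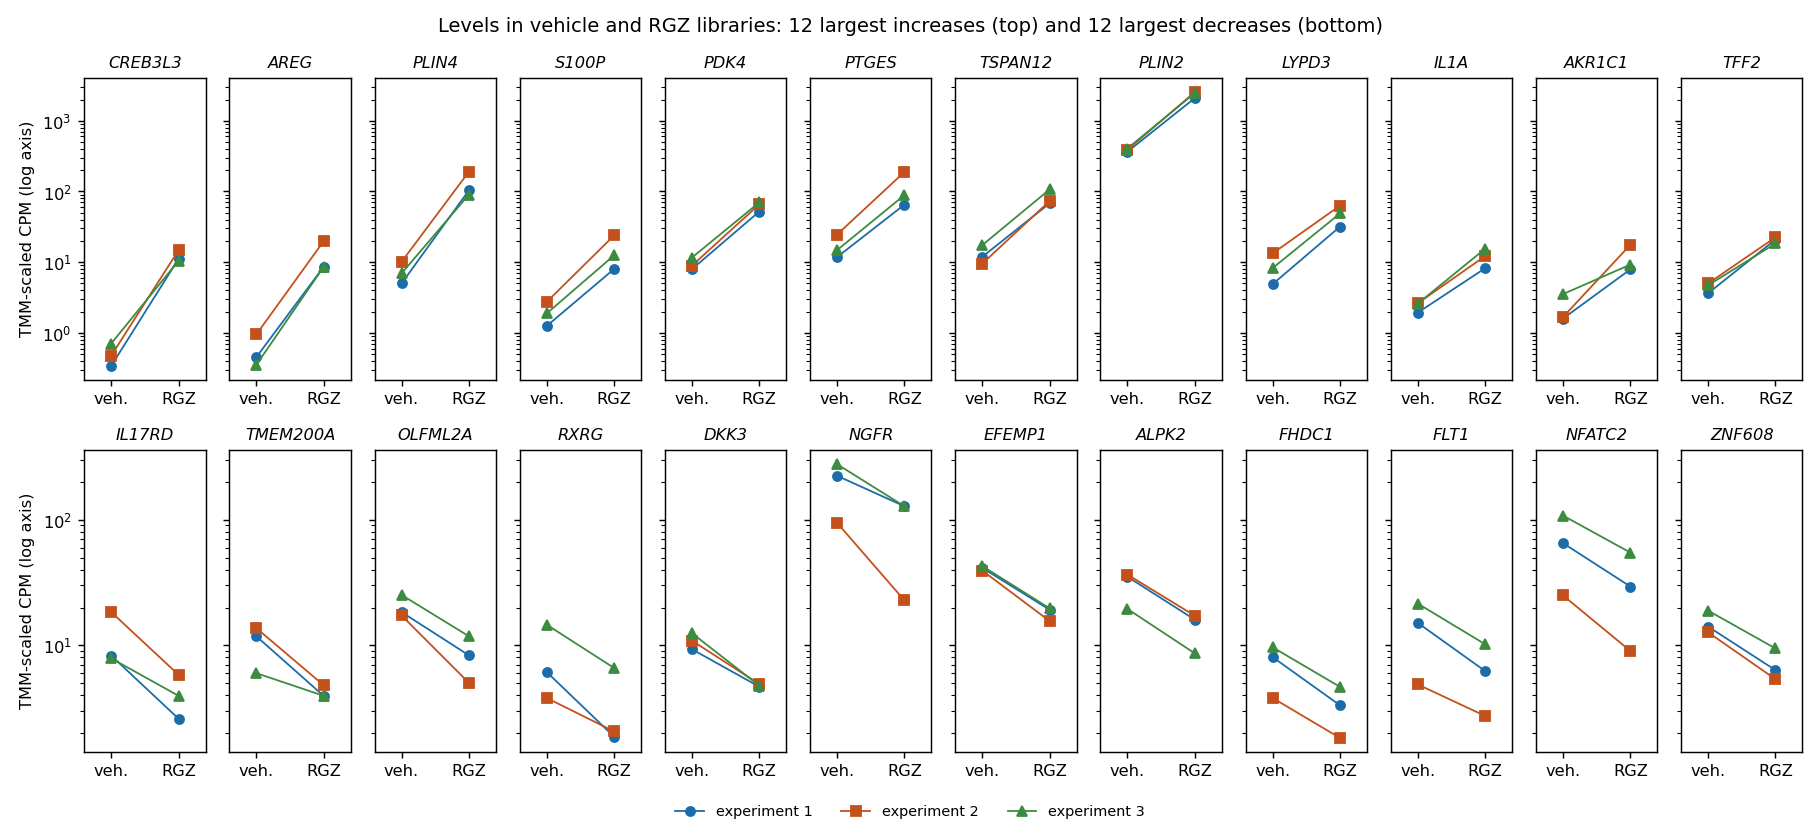
TMM-scaled CPM (log axis) of the 12 genes with the largest increases and the 12 with the largest decreases among called genes averaging 5 CPM or more, in the vehicle and RGZ libraries of experiments 1 to 3, with a line joining libraries of the same experiment. All lines rise in the upper row and fall in the lower row, and in *NGFR*, *FLT1* and *NFATC2* the experiments differ more than the conditions.

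The 12 largest decreases were smaller than the 12 largest increases. *IL17RD*, an inhibitor of FGF receptor signalling, had 8.29, 18.4 and 7.88 CPM with vehicle and 2.6, 5.82 and 3.96 CPM with RGZ (log2 fold change -1.46, SE 0.17, adjusted p = 9.88e-06). *DKK3*, a secreted protein of the Dickkopf family, had 9.31, 10.9 and 12.5 CPM with vehicle and 4.68, 4.91 and 4.77 CPM with RGZ (log2 fold change -1.19, SE 0.15, adjusted p = 3.70e-05), and *EFEMP1*, a matrix protein of the fibulin family, had 41.4, 39.4 and 42.8 CPM with vehicle and 19.2, 15.6 and 19.7 CPM with RGZ (log2 fold change -1.18, SE 0.11, adjusted p = 1.17e-06). In these genes, as in *TMEM200A* (-1.28), *OLFML2A* (-1.27), *ALPK2* (-1.13) and *ZNF608* (-1.10), the 3 RGZ libraries lay below the 3 vehicle libraries, which held for 7.57% of all tested genes. *NGFR*, the low-affinity neurotrophin receptor, had 224, 94.5 and 277 CPM with vehicle and 128, 22.8 and 128 CPM with RGZ (log2 fold change -1.18, SE 0.17, adjusted p = 1.01e-04). Experiment 2 was low in both conditions and the groups overlapped, while the level was lower with RGZ within each experiment. Groups also overlapped for *RXRG* (-1.23), which encodes a retinoid X receptor, *FHDC1* (-1.12), the VEGF receptor gene *FLT1* (-1.12) and the transcription factor gene *NFATC2* (-1.11). Without the block these 5 were not called, with adjusted p-values between 0.338 and 0.641, and neither were *IL17RD*, *TMEM200A* and *ALPK2* (0.232, 0.247 and 0.316), whereas *DKK3* and *EFEMP1* were (0.00461 and 4.71e-04).

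Pathways were followed through 57 lists of genes. For each list the numbers of tested members called higher and lower are given beside the 4.95% and 4.35% of all tested genes, with the number still called without the replicate block and without experiment 3. The fit without experiment 3 gave the lowest number, alone or tied, in 56 of the 57 lists. In 3 lists no member was called, in 15 the called members were all higher, in 5 all lower, and in 34 both directions occurred. Members are not independent of each other, the lists overlap in part, and no test of a list as a whole was made.

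**Figure D2:**
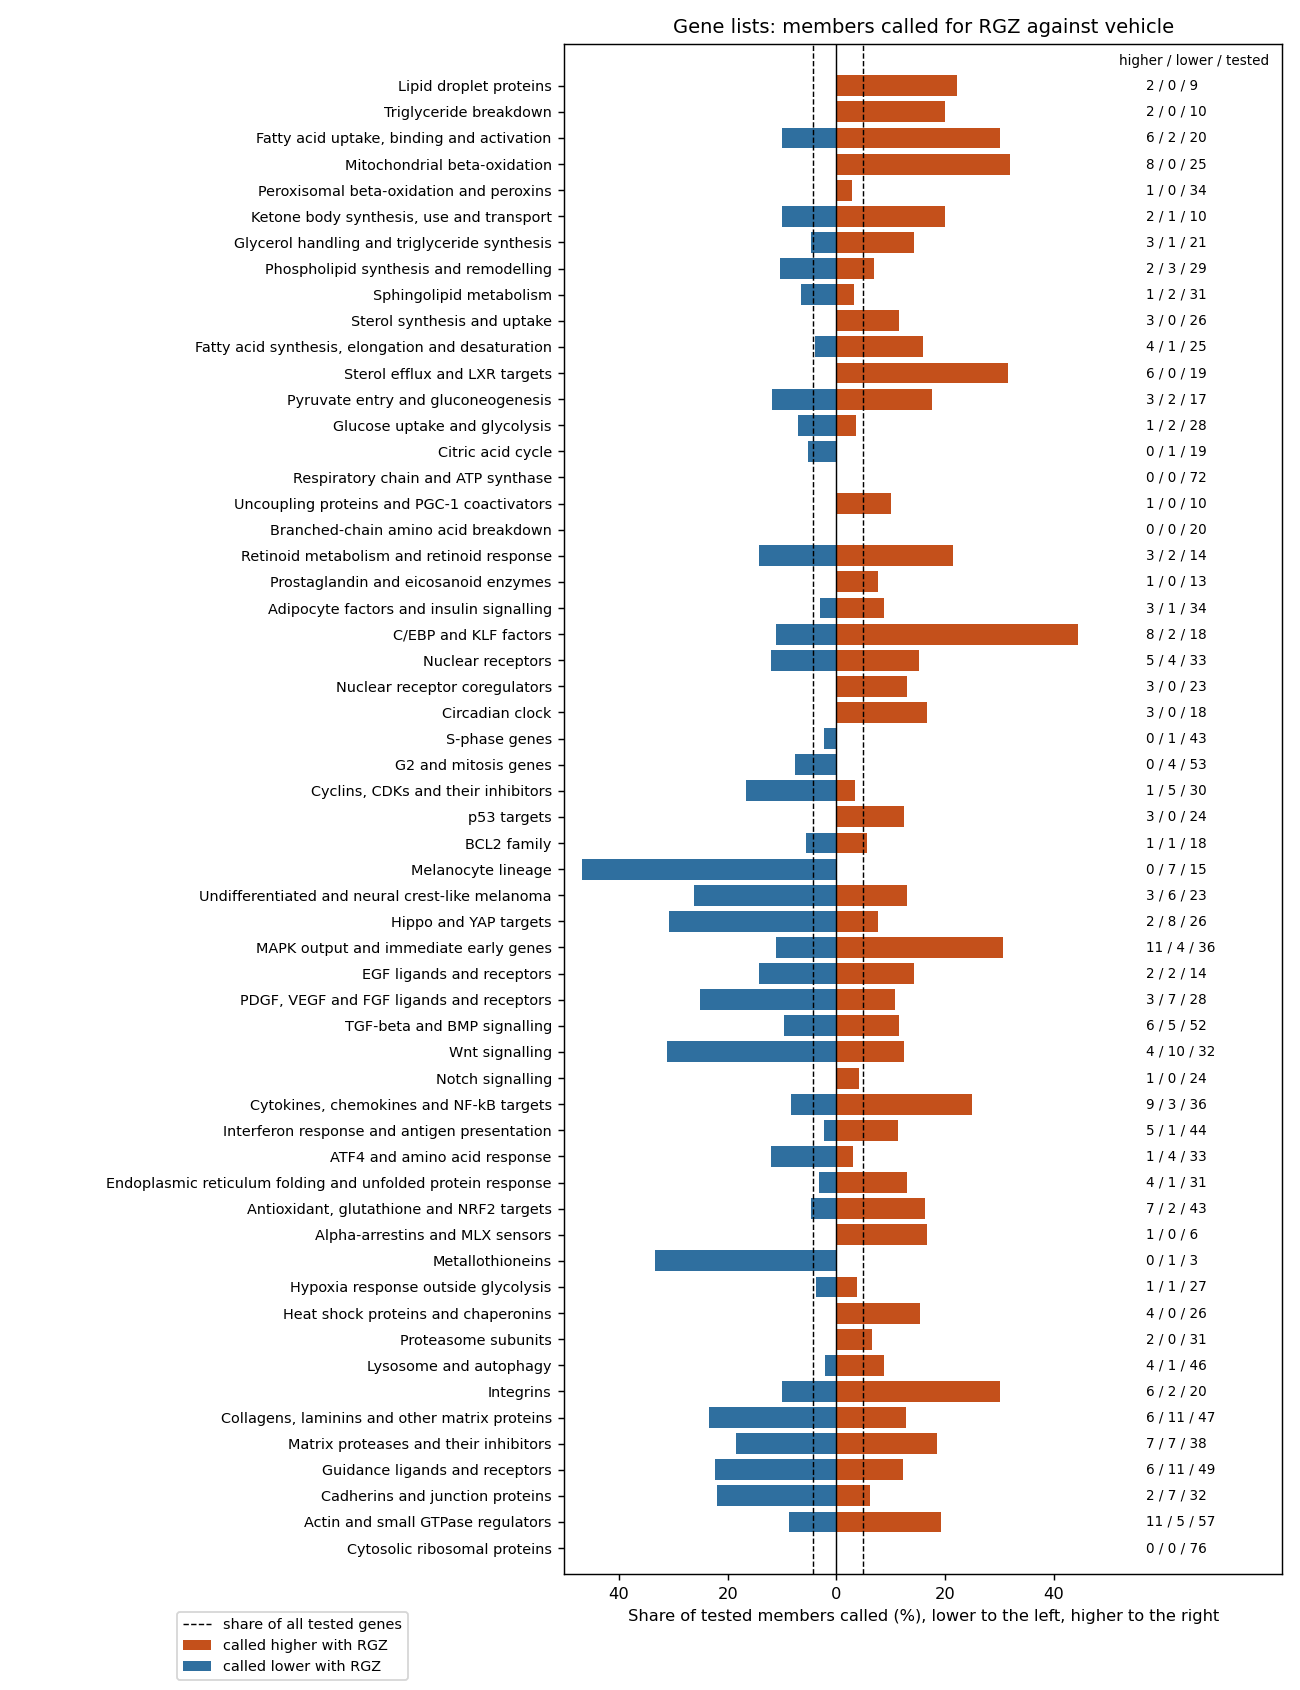
Share of tested members called higher (to the right) and lower (to the left) with RGZ in 57 gene lists, with dashed lines at the shares of all tested genes and the numbers called higher, called lower and tested at the right. The C/EBP and KLF factors reach the largest share higher, 44.4%, and the melanocyte lineage list the largest share lower, 46.7%.

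Lipid droplets and fatty acid handling rose in a few genes each. Among 9 tested lipid droplet proteins 2 were called, both higher (2 called without the block and 2 without experiment 3). These were *PLIN4* and *PLIN2*, perilipins that coat the droplet surface. *PLIN2* had 365, 389 and 405 CPM with vehicle and 2097, 2547 and 2477 CPM with RGZ (log2 fold change 2.62, SE 0.13, adjusted p = 4.84e-10) and *PLIN4* 5, 10.1 and 6.94 CPM with vehicle and 104, 191 and 90.5 CPM with RGZ (log2 fold change 4.11, SE 0.20, adjusted p = 4.84e-10). The rise was of similar size in all 3 experiments for both, and the median over the list was 0.08. Of 20 genes for uptake, binding and activation of fatty acids, 6 were called higher and 2 lower (2 higher and 0 lower without the block, 5 without experiment 3). *CD36*, a fatty acid translocase at the cell surface, had 3 counts summed over the vehicle libraries and 107 over the RGZ libraries, a depth-scaled ratio of 32.5 (95% exact interval 10.8 to 160). *ACSL3*, which activates fatty acids to acyl-CoA at the endoplasmic reticulum and droplets, had 171, 171 and 190 CPM with vehicle and 309, 324 and 402 CPM with RGZ (log2 fold change 0.95, SE 0.06, adjusted p = 1.78e-08). Its relatives *ACSL5* (1.36) and *ACSL4* and the lipase gene *LPL* rose as well, as did *DBI* (0.44), which encodes an acyl-CoA binding protein, while *ACSL1* had a log2 fold change of -0.08 (adjusted p = 0.597). *SLC27A1*, a fatty acid transporter, fell (-0.57), as did the brain-type binding protein gene *FABP7*, with 3.86, 3.81 and 5.3 CPM with vehicle and 1.98, 0.571 and 2.64 CPM with RGZ (log2 fold change -1.32, SE 0.28, adjusted p = 0.00467). Of 10 genes of triglyceride breakdown, *ABHD6* (0.55) and *MGLL* (0.45), both hydrolases of monoglycerides, were called higher, though *MGLL* did not rise in experiment 2 (log2 ratio -0.02) (0 called without the block and 0 without experiment 3). The main triglyceride lipase gene *PNPLA2* was not called, at 0.02 (adjusted p = 0.911), and *LIPE* had 0.69 (adjusted p = 0.182).

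Of 21 tested genes of glycerol handling and triglyceride synthesis, 3 were called higher and 1 lower (2 higher and 1 lower without the block, 3 without experiment 3). *AQP3*, a channel for water and glycerol, had 4.77, 5.24 and 7.65 CPM with vehicle and 14, 20.3 and 23.3 CPM with RGZ (log2 fold change 1.70, SE 0.14, adjusted p = 2.03e-07). The acyltransferase genes *GPAT3* (0.47) and *AGPAT2* (0.62), which add the first and second acyl chains to glycerol, rose less, and the lipid phosphatase gene *PLPP3* fell (-0.62). *GK* and *GPD1*, which make glycerol 3-phosphate, had under 2 CPM in all 6 libraries and were not called. Among 10 ketone body genes 2 were called higher and 1 lower (1 higher and 0 lower without the block, 1 without experiment 3). The transporter gene *SLC16A6* rose (1.39), and *BDH1*, which interconverts the ketone bodies, fell (-0.50).

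In the fit of all 12 libraries, mitochondrial β-oxidation was the metabolic list with the most members called in 1 direction. Without experiment 3 the sterol efflux list had as many called, 4. Of 25 tested genes, 8 were called higher (32%) and all called members were higher (4 called without the block and 4 without experiment 3), and the median of the list was 0.14. *SLC25A20*, which carries acylcarnitines across the inner mitochondrial membrane, had 27.6, 30.2 and 31.5 CPM with vehicle and 55.4, 57.2 and 58.3 CPM with RGZ (log2 fold change 0.94, SE 0.08, adjusted p = 2.99e-07). *ETFA*, a subunit of the flavoprotein that takes electrons from acyl-CoA dehydrogenases, had 233, 262 and 228 CPM with vehicle and 372, 401 and 379 CPM with RGZ (log2 fold change 0.67, SE 0.06, adjusted p = 3.99e-07). *ACAA2*, the thiolase of the last step, had 36.4, 38.1 and 36.7 CPM with vehicle and 57.5, 73.3 and 67.2 CPM with RGZ (log2 fold change 0.83, SE 0.08, adjusted p = 2.33e-06), and *ACADVL*, the very long-chain acyl-CoA dehydrogenase, had 464, 559 and 522 CPM with vehicle and 661, 751 and 774 CPM with RGZ (log2 fold change 0.50, SE 0.06, adjusted p = 1.87e-05). For each of these the 3 RGZ libraries were above the 3 vehicle libraries, and the within-experiment changes were close to each other. *HADHA*, *ETFB*, *ETFDH* and *ACADS* rose by less than 2-fold. In contrast, of 34 genes of peroxisomal β-oxidation and peroxisome assembly only *CAT*, which encodes catalase, was called (higher, 0.28, SE 0.06, adjusted p = 0.00413; 0 called without the block and 0 without experiment 3), with a median of -0.01. *PEX11A*, a peroxin of peroxisome division, had 0.07 (adjusted p = 0.783). The difference between the lists was not tested.

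**Figure D3:**
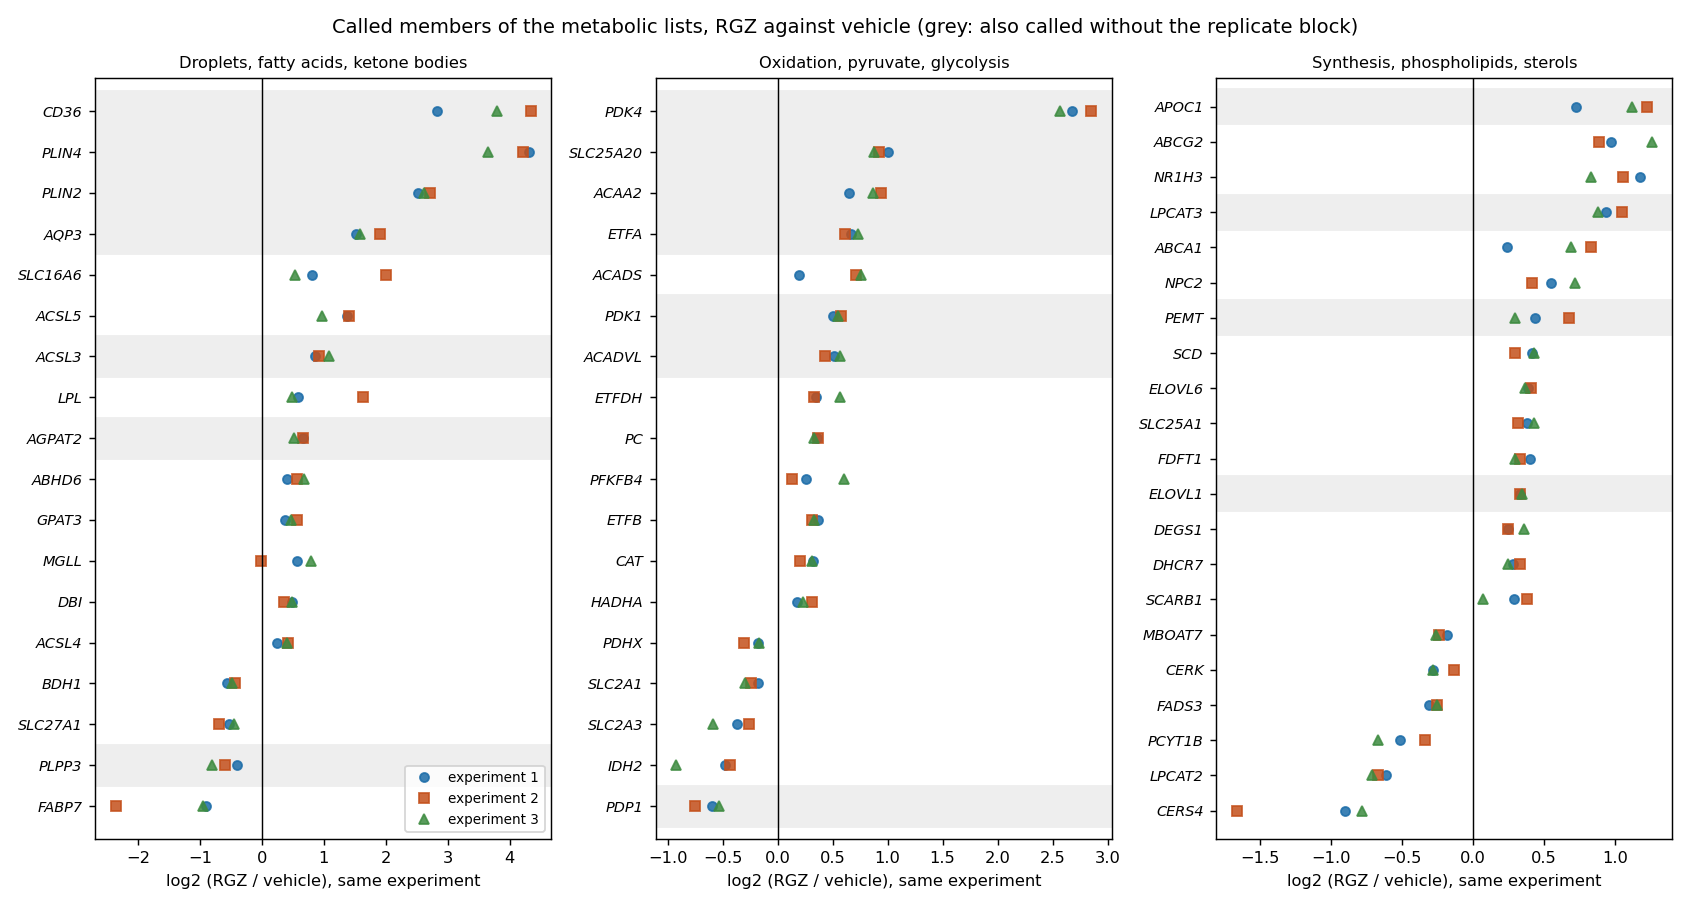
Within-experiment log2 ratio of RGZ to vehicle for called members of the lists of droplets, fatty acids and ketone bodies (left), oxidation, pyruvate and glycolysis (middle) and lipid synthesis and sterols (right), with a symbol for each experiment and grey bands for genes also called without the replicate block. *CD36*, *PLIN4* and *PLIN2* lie above 2.5 in every experiment, and in the middle panel all genes but *PDK4* lie at or below about 1.

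PPARγ binds DNA at a direct repeat of the hexamer AGGTCA with 1 base between its copies. In the 300 bases from 250 before to 50 after each gene's start in RefSeq (GRCh38.p14), with up to 2 mismatches over both hexamers and on either strand, this repeat was found at 2.24% of the genes called higher (12 of 535 with a promoter sequence), 1.33% of those called lower (6 of 450), 2.09% of tested genes (225 of 10758) and 2.99% of all promoters of the same length (816 of 27305). The shares called higher and tested were thus close, and this window holds only a small part of the DNA where the receptor can bind. The promoters below are those of the 3 genes called higher with the fewest mismatches and then the lowest p-value, shown because *CREB3L3* has the largest increase in the plot of levels by library and *ACAA2* belongs to the β-oxidation list, with the match in capitals. *CREB3L3* (chr19:4153381-4153680, plus strand) had 1 mismatch at 222 bases before the start, *SLC2A13* (chr12:40106032-40106331, minus strand), a transporter gene with a log2 fold change of 0.99 (adjusted p = 8.61e-05), had 1 mismatch at 145 bases before it, and *ACAA2* (chr18:49813484-49813783, minus strand) had 2 mismatches at 76 bases before it. A match is a description and not a binding site.
CREB3L3: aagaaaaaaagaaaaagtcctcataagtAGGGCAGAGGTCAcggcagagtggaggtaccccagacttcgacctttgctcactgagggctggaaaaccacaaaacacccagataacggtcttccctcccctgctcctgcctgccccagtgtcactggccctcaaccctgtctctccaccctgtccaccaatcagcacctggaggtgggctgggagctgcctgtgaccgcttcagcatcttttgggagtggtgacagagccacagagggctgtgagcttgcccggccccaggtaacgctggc
SLC2A13: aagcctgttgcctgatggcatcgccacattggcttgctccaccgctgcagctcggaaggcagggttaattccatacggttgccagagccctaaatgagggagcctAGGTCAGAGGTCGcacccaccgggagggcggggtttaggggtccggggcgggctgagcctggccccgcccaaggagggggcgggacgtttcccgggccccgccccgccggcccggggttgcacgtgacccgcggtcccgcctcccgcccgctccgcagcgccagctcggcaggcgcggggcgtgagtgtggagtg
ACAA2: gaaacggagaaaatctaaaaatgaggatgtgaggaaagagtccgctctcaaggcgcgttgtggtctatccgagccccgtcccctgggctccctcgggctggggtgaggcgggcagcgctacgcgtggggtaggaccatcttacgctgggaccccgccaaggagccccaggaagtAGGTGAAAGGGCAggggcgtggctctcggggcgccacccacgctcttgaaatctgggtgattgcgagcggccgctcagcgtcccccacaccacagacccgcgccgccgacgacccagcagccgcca

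Genes that steer pyruvate moved in both directions. Of 17 tested, 3 were called higher and 2 lower (2 higher and 1 lower without the block, 3 without experiment 3). Beside *PDK4*, the pyruvate dehydrogenase kinase gene *PDK1* rose (16.6, 18.4 and 17.2 CPM with vehicle and 23.5, 27.7 and 25.2 CPM with RGZ, log2 fold change 0.55, SE 0.10, adjusted p = 9.12e-04). *PDP1*, the phosphatase that reverses these kinases, fell (126, 122 and 120 CPM with vehicle and 83.1, 72.4 and 82.7 CPM with RGZ, log2 fold change -0.62, SE 0.08, adjusted p = 3.70e-05), and *PDHX*, a structural part of the complex, fell by less (-0.22). *PC*, pyruvate carboxylase, rose (0.35), whereas *PCK2* was not called (-0.22, adjusted p = 0.152). In glucose uptake and glycolysis, with 28 tested genes, *PFKFB4* rose (0.34) and the glucose transporter genes *SLC2A1* (-0.24) and *SLC2A3* (-0.41) fell (0 called without the block and 0 without experiment 3). *HK2* had -0.08. The only citric acid cycle gene called among 19 was *IDH2*, an NADP-dependent isocitrate dehydrogenase, which was lower (21.6, 25.9 and 28.7 CPM with vehicle and 15.4, 19.2 and 15.1 CPM with RGZ, log2 fold change -0.62, SE 0.11, adjusted p = 8.95e-04, 0 called without the block and 0 without experiment 3), and citrate synthase was not called (0.02 for *CS*). None of 72 respiratory chain and ATP synthase genes was called over the 12 libraries by edgeR, DESeq2 or limma-voom, and 8 had an unadjusted p-value under 0.05. The number was 24 in the fit of the 6 RGZ and vehicle libraries alone, 3 without the vehicle library of experiment 2, 2 without experiment 2 and 2 with no filter on low counts. Their median was 0.10 and 69 of 72 had a positive log2 fold change, as for *NDUFA9* (0.11) and *COX4I1* (0.13). Of 20 genes of branched-chain amino acid breakdown none was called by these tools either (3 in the fit of 6 libraries, and 1 each without the vehicle library of experiment 2, without experiment 2 and with no filter), with 6 at an unadjusted p-value under 0.05 and a median of -0.07, *BCAT2* (0.01) and *BCKDHA* (-0.01) neither being called. Of 10 uncoupling proteins and PGC-1 related genes, only the nuclear receptor gene *ESRRA* was called (higher, 65.3, 66.6 and 69.4 CPM with vehicle and 82.4, 96.5 and 87.7 CPM with RGZ, log2 fold change 0.40, SE 0.07, adjusted p = 7.74e-04, 1 called without the block and 1 without experiment 3). *PPARGC1A*, the coactivator known for driving mitochondrial genes, was at 0.706 to 1.67 CPM across the 6 libraries, and *UCP2* had -0.05.

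Of 19 tested genes of the list for sterol efflux and targets of the liver X receptors, 6 were called higher (31.6%) (1 called without the block and 4 without experiment 3). *NR1H3*, which encodes LXRα, had 18.6, 38.3 and 21.8 CPM with vehicle and 42.4, 79.9 and 38.9 CPM with RGZ (log2 fold change 1.03, SE 0.10, adjusted p = 1.91e-06). *ABCG2*, a multidrug and sterol transporter of the ABC family, had 7.72, 16.3 and 6.94 CPM with vehicle and 15.3, 30.5 and 17 CPM with RGZ (log2 fold change 1.04, SE 0.13, adjusted p = 2.69e-05), and *APOC1*, a small apolipoprotein, had 5.11, 5.24 and 4.82 CPM with vehicle and 8.63, 12.6 and 10.8 CPM with RGZ (log2 fold change 1.07, SE 0.17, adjusted p = 3.57e-04). The lysosomal cholesterol carrier gene *NPC2* (0.56), *ABCA1* (0.62) and *SCARB1* rose as well, while the related transporter gene *ABCG1* was not called (0.38, adjusted p = 0.464). Experiment 2 was highest for *NR1H3* and *ABCG2* in both conditions, and only for *APOC1* was the call kept without the block. In sterol synthesis and uptake 3 were called higher among 26 tested, *FDFT1* (0.35) and *DHCR7* (0.29) included (1 called without the block and 2 without experiment 3), a median of 0.07 and 21 of 26 log2 fold changes positive. In fatty acid synthesis, elongation and desaturation, with 25 tested, *SCD* (0.39), *ELOVL6* (0.39), *ELOVL1* (0.34) and the citrate carrier gene *SLC25A1* (0.37) rose, *FADS3* fell (-0.27) (1 higher and 0 lower without the block, 1 without experiment 3). *FASN* had 0.04 (adjusted p = 0.772).

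In phospholipid synthesis and remodelling 2 genes were called higher and 3 lower. *LPCAT3*, which puts polyunsaturated chains into phosphatidylcholine, had 68.2, 69.7 and 75.7 CPM with vehicle and 132, 145 and 139 CPM with RGZ (log2 fold change 0.96, SE 0.06, adjusted p = 2.33e-08), and *PEMT* rose (0.48). *LPCAT2*, which uses other acyl chains and makes platelet-activating factor, fell (73.2, 55.9 and 84.7 CPM with vehicle and 47.9, 35.1 and 51.8 CPM with RGZ, log2 fold change -0.66, SE 0.07, adjusted p = 5.51e-06), as did *MBOAT7* (-0.23) and *PCYT1B* (-0.53), among 29 tested (2 higher and 0 lower without the block, 3 without experiment 3). *PCYT1A* was not called (-0.04). Of 31 sphingolipid genes, the ceramide desaturase gene *DEGS1* rose (0.29) and *CERS4* (-1.17) and *CERK* (-0.23) fell (0 called without the block and 0 without experiment 3). *SGMS1* (0.36) and *SPTLC1* (-0.03) were not called. In the retinoid list *RDH10*, which makes retinal from retinol (0.63), *RBP4*, the retinol carrier of plasma (1.36, 3.69 and 0.824 CPM with vehicle and 3.53, 12.1 and 3.25 CPM with RGZ, log2 fold change 1.65, SE 0.29, adjusted p = 8.24e-04), and *CYP26B1*, which degrades retinoic acid (4.54, 8.69 and 6.83 CPM with vehicle and 9.56, 21.7 and 11.2 CPM with RGZ, log2 fold change 1.06, SE 0.19, adjusted p = 9.18e-04), rose, and *DHRS3* (-0.61) and the retinol receptor gene *STRA6* (-0.33) fell, among 14 tested (1 higher and 0 lower without the block, 4 without experiment 3). Without the RGZ library of experiment 2, the number called in this list was 3. *ALDH1A3* was not called (-0.23, adjusted p = 0.0911). *PTGES* was the only called gene among 13 prostaglandin and eicosanoid enzymes (1 called without the block and 1 without experiment 3).

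In the fit of all 12 libraries with the block, the list of C/EBP and KLF transcription factors held the largest share of called members. Of 18 tested C/EBP and KLF genes, 8 were called higher (44.4%) and 2 lower (2 higher and 1 lower without the block, 5 without experiment 3), and the median was 0.22. *KLF4* had 17.1, 16.8 and 18.5 CPM with vehicle and 43.8, 50 and 47.8 CPM with RGZ (log2 fold change 1.43, SE 0.11, adjusted p = 1.84e-07) and *KLF10* 40, 37.7 and 40.7 CPM with vehicle and 63.1, 61.7 and 71.4 CPM with RGZ (log2 fold change 0.73, SE 0.08, adjusted p = 7.01e-06). *CEBPA*, a partner of PPARγ in fat cells, had 2.16, 2.97 and 2.12 CPM with vehicle and 3.95, 7.42 and 4.57 CPM with RGZ (log2 fold change 1.12, SE 0.19, adjusted p = 7.13e-04). *KLF5* (0.38), *CEBPB*, *KLF6*, *KLF11* and *KLF13* rose by less than 2-fold. The members that fell were *KLF9*, with 35.7, 21.3 and 52 CPM with vehicle and 21.3, 14.5 and 28.8 CPM with RGZ (log2 fold change -0.74, SE 0.09, adjusted p = 2.69e-05), and *KLF15*, with 3.52, 4.4 and 5.18 CPM with vehicle and 1.87, 1.71 and 1.93 CPM with RGZ (log2 fold change -1.24, SE 0.25, adjusted p = 0.003). For *KLF9* the groups overlapped across experiments, and for *KLF15* they did not. In the list of adipocyte factors and insulin signalling, *IGFBP4* (0.47), *NAMPT* (0.32) and *TRIB1* (0.35) were called higher and *TRIB2* (-0.30) lower among 34 tested (0 called without the block and 1 without experiment 3). *IRS2* (-0.16) did not pass (adjusted p = 0.145), and *ADIPOQ* and *LEP* were not among the tested genes.

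Nuclear receptor genes split evenly. Of 33 tested, 5 were called higher and 4 lower (2 higher and 0 lower without the block, 4 without experiment 3). Beside *NR1H3* and *ESRRA*, the clock repressor gene *NR1D1* had 11.1, 9.04 and 13.1 CPM with vehicle and 20, 19.6 and 19.7 CPM with RGZ (log2 fold change 0.84, SE 0.12, adjusted p = 1.03e-04), and *RORB* (0.91) and *NR2F1* rose. Beside *RXRG*, the genes of the vitamin D receptor (-0.40 for *VDR*) and the thyroid hormone receptor α (-0.39 for *THRA*) fell. *PPARG*, the receptor of the drug, had 79.1, 90.0 and 77.4 CPM with vehicle and 69.2, 77.6 and 69.5 CPM with RGZ, and its log2 fold change of -0.19 (SE 0.06) missed the threshold (adjusted p = 0.0823). *PPARA* (-0.42, adjusted p = 0.0612) and *RXRA* (-0.07) were not called. Of 23 coregulators, *TBL1X* (133, 158 and 136 CPM with vehicle and 198, 217 and 193 CPM with RGZ, log2 fold change 0.51, SE 0.06, adjusted p = 1.30e-05), *CITED2* (0.73) and *NCOA7* (0.44) rose (0 called without the block and 2 without experiment 3), and *NCOR1* (0.05) and *NCOA1* (0.01) were not called. In the circadian list, *NPAS2* (0.54), *NR1D1* and *NFIL3* (0.42) were called higher among 18 (1 called without the block and 2 without experiment 3), and *PER2* was not called (-0.16).

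Of 36 tested genes of MAPK output and the immediate early response, 11 were called higher (30.6%) and 4 lower (3 higher and 0 lower without the block, 5 without experiment 3). *JUN* had 52.8, 57.2 and 33.7 CPM with vehicle and 97.3, 105 and 81.5 CPM with RGZ (log2 fold change 1.00, SE 0.12, adjusted p = 1.96e-05), *MYC* had 21.1, 18.8 and 18.1 CPM with vehicle and 36, 36.2 and 29.5 CPM with RGZ (log2 fold change 0.81, SE 0.10, adjusted p = 2.73e-05), and *FOSL1*, a partner of JUN in AP-1, had 389, 348 and 379 CPM with vehicle and 552, 476 and 498 CPM with RGZ (log2 fold change 0.45, SE 0.06, adjusted p = 2.98e-05). For these 3 the groups did not overlap. *ETV4* (0.41), *FOSL2*, *DUSP1*, *DUSP5*, *PHLDA1*, *LIF*, *EPHA2* and *ARC* also rose. *SPRY1* (-0.95), *ETV5* (-0.25), *DUSP6* (-0.18) and *JUND* (-0.32) fell, and *SPRY4*, another feedback inhibitor, had -0.19 (adjusted p = 0.0719). Among 14 EGF ligands and receptors *AREG* and *HBEGF* (0.32) rose and *EGF* (-1.15) and *ERBB3* (-0.55) fell (1 higher and 0 lower without the block, 2 without experiment 3). *EGFR*, the receptor of both ligands that rose, had -0.36 (adjusted p = 0.21).

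Of 28 PDGF, VEGF and FGF ligands and receptors, 3 were called higher and 7 lower (25%) (0 higher and 1 lower without the block, 4 without experiment 3). *PGF*, placental growth factor, had 5.11, 7.73 and 4.59 CPM with vehicle and 10.3, 11.4 and 8.32 CPM with RGZ (log2 fold change 0.79, SE 0.17, adjusted p = 0.00503), and its co-receptor gene *NRP2* rose (0.52), as did *FGFRL1* (0.27). *PDGFB* had 6.59, 7.73 and 4.24 CPM with vehicle and 2.18, 1.71 and 1.93 CPM with RGZ (log2 fold change -1.64, SE 0.23, adjusted p = 8.78e-05), and none of its RGZ libraries reached the lowest vehicle library. *FGF2* (-0.53), *FGFR3* (-0.81), *FLT1*, *KDR*, *PDGFRB* and *FGF1* fell, and *VEGFA* was not called (0.18). TGF-β and BMP genes moved both ways, with 6 of 52 higher and 5 lower (0 higher and 1 lower without the block, 6 without experiment 3). *BMP6* had 1.14, 0.357 and 1.29 CPM with vehicle and 3.01, 3.54 and 4.16 CPM with RGZ (log2 fold change 1.92, SE 0.32, adjusted p = 5.09e-04), and *BMP2* (0.90) and the activin inhibitor genes *FST* (0.71) and *FSTL3* (0.55) rose. The BMP co-receptor gene *RGMA* had 2.27, 1.07 and 1.53 CPM with vehicle and 0.208, 0.343 and 0.609 CPM with RGZ (log2 fold change -2.03, SE 0.42, adjusted p = 0.0039), and *BAMBI* (-0.81), *TGFB2* (-0.83) and *TGFBI* (-0.23) fell. *TGFB1* was not called (-0.14).

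Of 36 tested cytokine, chemokine and NF-κB target genes, 9 were called higher (25%) and 3 lower (5 higher and 1 lower without the block, 6 without experiment 3). *IL1A* had 1.93, 2.62 and 2.59 CPM with vehicle and 8.21, 12.2 and 15.5 CPM with RGZ (log2 fold change 2.33, SE 0.19, adjusted p = 1.99e-07). *CSF2*, which encodes GM-CSF, had 10 counts over the vehicle libraries and 213 over the RGZ libraries, a depth-scaled ratio of 19.4 (95% exact interval 10.3 to 41). *IL1B* had 0.681, 9.52 and 0.706 CPM with vehicle and 6.13, 30.7 and 6.29 CPM with RGZ (log2 fold change 2.07, SE 0.22, adjusted p = 5.26e-06), with experiment 2 high in both conditions. *IRF1*, a transcription factor of the interferon and NF-κB responses, had 19.4, 21.2 and 17.9 CPM with vehicle and 39.1, 41.9 and 31.5 CPM with RGZ (log2 fold change 0.94, SE 0.09, adjusted p = 1.42e-06). *CXCL2* and *CXCL3*, which are close copies and uncertain for that reason, rose too, as did *IL11*, *LIF* and *TRAF3IP2*. *MALT1* (-0.53), *TRAF1* (-0.56) and *CCL2* (-1.04, with 98 counts over the vehicle and 52 over the RGZ libraries) fell. *CXCL8* (0.29, adjusted p = 0.187) and *NFKBIA* (0.21) were not called.

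Among 65 families defined by the letters that begin a symbol, with at least 20 tested genes each, the IL symbols, which name ligands and receptors alike, had the largest share called higher, 10 of 34 (29.4%), with *IL17RD* as the only one called lower and a median of 0.03. *IL1RL1*, the receptor of IL-33, had 24.3, 97.3 and 7.77 CPM with vehicle and 96.4, 423 and 44.3 CPM with RGZ (log2 fold change 2.13, SE 0.13, adjusted p = 1.11e-08). Its level differed more between experiments than between conditions, and without the block its adjusted p was 0.516. *IL13RA2*, a decoy receptor of IL-13, had 319, 312 and 425 CPM with vehicle and 476, 497 and 658 CPM with RGZ (log2 fold change 0.63, SE 0.06, adjusted p = 1.68e-06), and *IL18R1*, *IL4R*, *IL15RA*, *IL12A* and *IL37* were also called higher. Only *IL1A* of the family was called without the block. Of 44 interferon response and antigen presentation genes, 5 were called higher and 1 lower (1 higher and 0 lower without the block, 3 without experiment 3). *OAS1*, a sensor of double-stranded RNA, had 5.68, 6.31 and 8.94 CPM with vehicle and 19.2, 28 and 24.4 CPM with RGZ (log2 fold change 1.77, SE 0.16, adjusted p = 6.86e-07), and its relative *OASL* had 0.454, 2.62 and 0.353 CPM with vehicle and 2.18, 12.9 and 1.12 CPM with RGZ (log2 fold change 2.21, SE 0.25, adjusted p = 9.83e-06). *TAP2* (0.31) and *ISG20* (0.40) rose by less, and *IFIT1* fell (-1.01). *ISG15* was not called (0.10).

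Matrix and adhesion genes changed in both directions with separate members. Of 20 integrins 6 were called higher (30%) and 2 lower (3 higher and 0 lower without the block, 5 without experiment 3). *ITGA2*, a collagen-binding subunit, had 39.1, 40 and 34.5 CPM with vehicle and 97.2, 141 and 117 CPM with RGZ (log2 fold change 1.63, SE 0.12, adjusted p = 1.22e-07). *ITGA3*, a laminin-binding subunit, had 351, 460 and 317 CPM with vehicle and 618, 777 and 561 CPM with RGZ (log2 fold change 0.80, SE 0.07, adjusted p = 2.61e-07), and *ITGB7* had 4.88, 4.76 and 2.59 CPM with vehicle and 12, 20.1 and 10.4 CPM with RGZ (log2 fold change 1.77, SE 0.17, adjusted p = 2.14e-06). *ITGB5* (0.54), *ITGA6* and *ITGA1* rose, and *ITGB4* (-0.45) and *ITGA9* (-1.66) fell. *ITGA9* had 94 counts over the vehicle libraries and 33 over the RGZ libraries. *ITGAV* (0.15) and *ITGB3* (-0.18) were not called, with adjusted p-values of 0.447 and 0.444.

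Of 47 collagens, laminins and other matrix proteins, 6 were called higher and 11 lower (23.4%) (1 higher and 0 lower without the block, 9 without experiment 3), with a median of -0.16. The collagen VI genes tested here rose. *COL6A1* had 111, 105 and 136 CPM with vehicle and 198, 218 and 230 CPM with RGZ (log2 fold change 0.88, SE 0.08, adjusted p = 6.23e-07), *COL6A2* had 51.1, 43 and 59.7 CPM with vehicle and 80.1, 72.3 and 103 CPM with RGZ (log2 fold change 0.73, SE 0.09, adjusted p = 2.11e-05) and *COL6A3* 9.77, 6.31 and 13.5 CPM with vehicle and 24.6, 14.7 and 28 CPM with RGZ (log2 fold change 1.19, SE 0.15, adjusted p = 3.09e-05). *LAMA4*, a laminin chain, had 61.5, 62.8 and 90.5 CPM with vehicle and 130, 168 and 183 CPM with RGZ (log2 fold change 1.18, SE 0.11, adjusted p = 1.29e-06), and *LAMA1* and *COL4A1* (0.26) also rose. Among fibrillar collagen genes that fell, the log2 fold change was -0.68 for *COL5A1*, -0.38 for *COL5A2* and -0.76 for *COL1A1*. *COL16A1* (-0.59) and *COL9A3* (-0.38) fell too. *FN1*, fibronectin, had 223, 65.4 and 352 CPM with vehicle and 117, 36.8 and 191 CPM with RGZ (log2 fold change -0.88, SE 0.09, adjusted p = 4.49e-06). It was lower with RGZ within each experiment by a similar ratio, and the experiments differed more from each other than the conditions did. Also lower were *THBS1*, *THBS3*, *SPP1*, *BGN* and *LAMB2*.

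Matrix proteases and their inhibitors were divided 7 to 7 among 38 tested (2 higher and 0 lower without the block, 6 without experiment 3). *SERPINE2*, an inhibitor of thrombin and plasminogen activators, had 2365, 2620 and 3398 CPM with vehicle and 3760, 4009 and 5547 CPM with RGZ (log2 fold change 0.66, SE 0.05, adjusted p = 2.73e-07). *MMP19* had 4.88, 8.81 and 5.06 CPM with vehicle and 19.8, 21.8 and 20.9 CPM with RGZ (log2 fold change 1.75, SE 0.20, adjusted p = 1.30e-05), and *PLAUR*, the urokinase receptor, 66, 84.4 and 61.5 CPM with vehicle and 94.8, 124 and 111 CPM with RGZ (log2 fold change 0.64, SE 0.09, adjusted p = 1.09e-04). The inhibitor genes *TIMP3* (0.57) and *TIMP1* (0.48) rose, whereas *TIMP2* (-0.27), *MMP2* (-0.37), *MMP3* (-0.93) and *MMP8* (-1.65) fell.

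**Figure D4:**
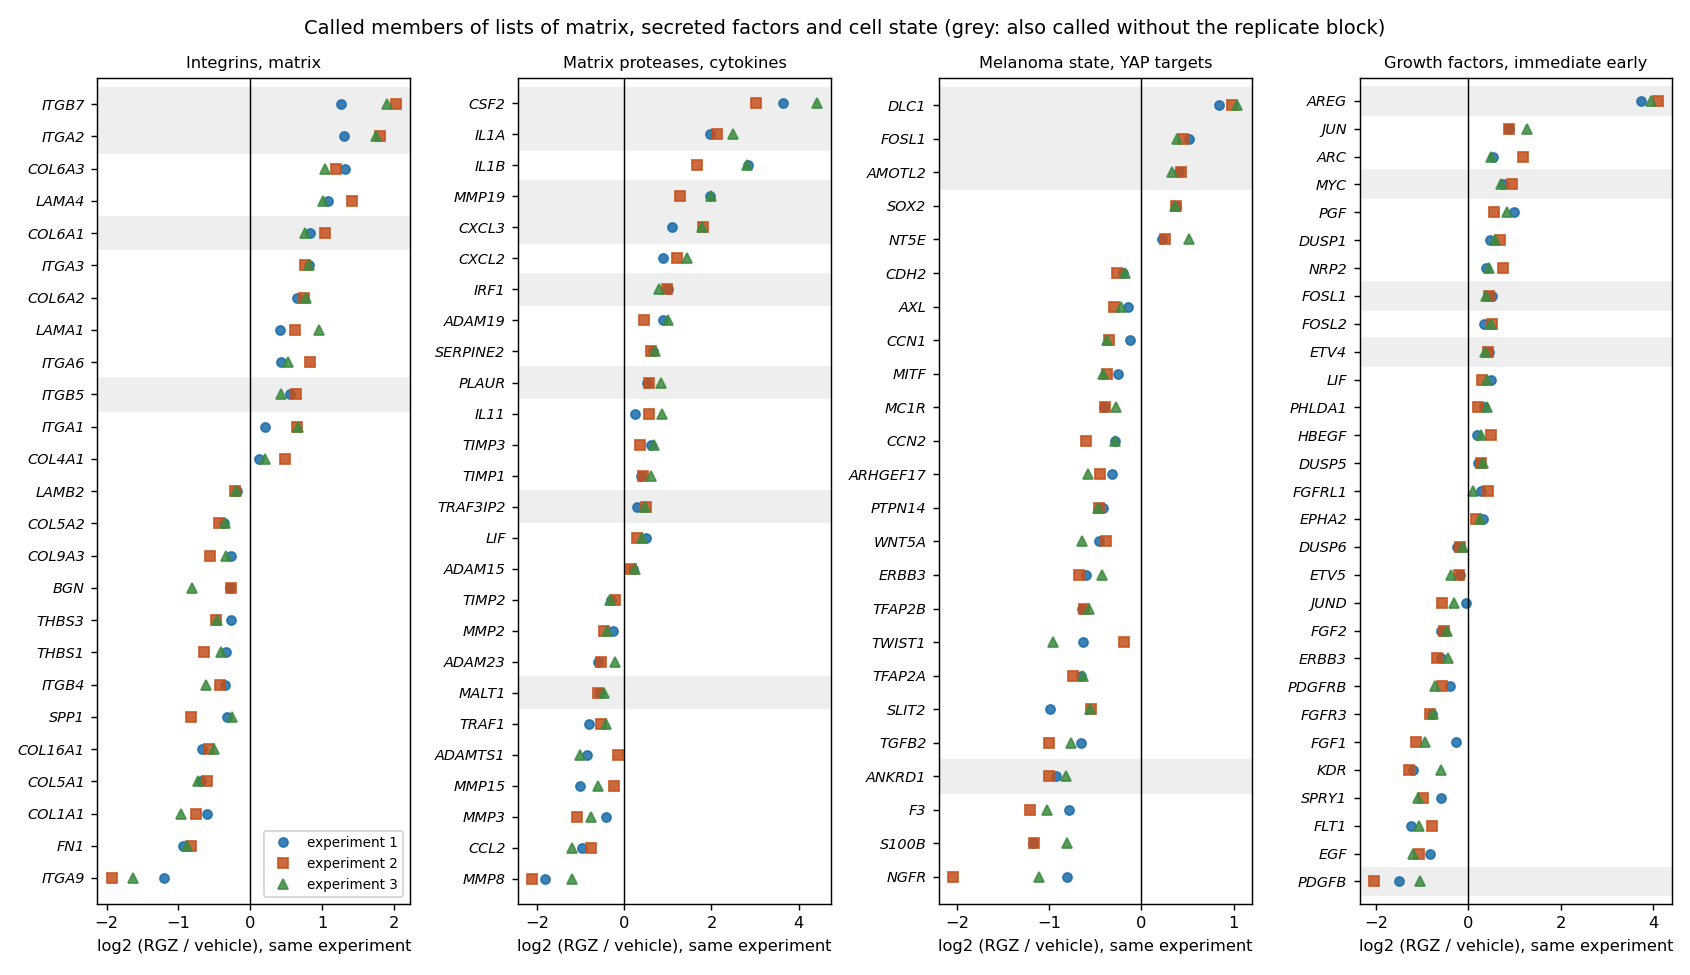
Within-experiment log2 ratio of RGZ to vehicle for called members of the lists of integrins and matrix, matrix proteases and cytokines, melanoma state and YAP targets, and growth factors and immediate early genes, with a symbol for each experiment and grey bands for genes also called without the replicate block. In the third panel most of the called genes lie below 0 in all 3 experiments and few carry a grey band.

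Among 49 guidance ligands and receptors, 6 were called higher and 11 lower (22.4%) (0 higher and 2 lower without the block, 7 without experiment 3). *NTN4*, a netrin of basement membranes, had 11.1, 12.1 and 9.06 CPM with vehicle and 18.8, 34.7 and 21.1 CPM with RGZ (log2 fold change 1.19, SE 0.13, adjusted p = 5.13e-06), and *SEMA3F* (0.89), *SEMA7A* (0.55) and *EPHA2* (0.25) rose. The ephrin receptor genes *EPHA3* (-0.99), *EPHB3* (log2 ratios of -1.08, -1.03 and -0.89 within experiments) and *EPHA7* (12.9, 11.8 and 13.3 CPM with vehicle and 6.45, 5.25 and 6.6 CPM with RGZ, log2 fold change -1.05, SE 0.15, adjusted p = 1.27e-04) fell. *UNC5C*, a netrin receptor, had 60 counts over the vehicle libraries and 9 over the RGZ libraries, a depth-scaled ratio of 0.137 (95% exact interval 0.0596 to 0.277). *SEMA3A* was not called (0.13). Of 32 cadherins and junction proteins, 7 were called lower (21.9%) and the claudin genes *CLDN4* (0.78) and *CLDN1* (1.19) higher (0 called without the block and 3 without experiment 3), with a median of -0.21. *FAT3* (-1.26), *CDH19* (-0.58), *ALCAM* (-0.29), *PKP2* (-0.52) and *CDH2* (-0.21) were among those that fell.

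Regulators of actin and its small GTPases rose more often than they fell, with 11 of 57 called higher (19.3%) and 5 lower (3 higher and 0 lower without the block, 8 without experiment 3). *COTL1*, a protein that binds actin filaments, had 750, 832 and 781 CPM with vehicle and 1280, 1381 and 1256 CPM with RGZ (log2 fold change 0.73, SE 0.06, adjusted p = 2.73e-07). *CORO2B*, a coronin, had 19, 20.3 and 21.1 CPM with vehicle and 46.6, 51.3 and 55.4 CPM with RGZ (log2 fold change 1.34, SE 0.11, adjusted p = 2.99e-07), while its relative *CORO2A* fell (-0.52). *DLC1*, which switches off RHOA, had 72, 74.1 and 52 CPM with vehicle and 129, 146 and 107 CPM with RGZ (log2 fold change 0.95, SE 0.08, adjusted p = 5.86e-07), and the GTPase gene *RHOB* had 37.9, 23.7 and 53.7 CPM with vehicle and 77.1, 66.2 and 90.2 CPM with RGZ (log2 fold change 1.06, SE 0.12, adjusted p = 7.06e-06). *TPM1* (-0.39), *CNN3* (-0.33) and *CDC42EP3* (-0.33) fell. ARHGAP symbols, which name GTPase-activating proteins, had 5 of 31 called higher (16.1%) and 2 lower (6.45%), with 0 called without the block. *ARHGAP26* (0.88) and *ARHGAP29* (0.84) were among those that rose, and *ARHGAP18* and *ARHGAP33* fell. ARHGEF symbols, which name guanine nucleotide exchange factors, had 3 of 21 called lower (14.3%) and 0 higher, with 1 called without the block, among them *ARHGEF3* (21.7, 17.3 and 22.2 CPM with vehicle and 13.3, 11.3 and 13.1 CPM with RGZ, log2 fold change -0.70, SE 0.12, adjusted p = 8.28e-04) and *ARHGEF17* (-0.45). The difference between the 2 families was not tested.

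Of 15 tested melanocyte lineage genes, 7 were called lower (46.7%), the called members were all lower, and the median was -0.34 (0 called without the block and 5 without experiment 3). *S100B* had 23.4, 15.1 and 38.5 CPM with vehicle and 10.2, 6.62 and 21.8 CPM with RGZ (log2 fold change -1.02, SE 0.13, adjusted p = 3.73e-05), and *ERBB3*, the neuregulin receptor, had 221, 131 and 330 CPM with vehicle and 146, 82 and 245 CPM with RGZ (log2 fold change -0.55, SE 0.08, adjusted p = 1.10e-04). *TFAP2B* (-0.61), *TFAP2A*, *MC1R* and *MITF*, the master regulator of the lineage (48.6, 56.6 and 32.6 CPM with vehicle and 40.9, 43.8 and 24.4 CPM with RGZ, log2 fold change -0.34, SE 0.08, adjusted p = 0.00997), fell as well. *SOX10* was not called (-0.14, adjusted p = 0.167). For *S100B*, *ERBB3*, *TFAP2B* and *MITF* the vehicle and RGZ groups overlapped, since experiments 1 to 3 differed from each other in both conditions. In RNA of whole cultures, fewer cells of a type and less RNA per cell cannot be told apart. A further 12 genes of the list, including *TYR*, *TYRP1*, *DCT* and *MLANA*, did not pass the filter on low counts and were not compared. In the undifferentiated and neural crest-like list, 6 of 23 were called lower and 3 higher (1 higher and 0 lower without the block, 3 without experiment 3). Beside *NGFR*, *WNT5A* (-0.49), *SLIT2* (-0.74), *CDH2*, *TWIST1* and *AXL* (-0.22) fell, and *FOSL1*, *NT5E* (0.34) and *SOX2* (0.37) rose. *CDH2* and *SOX2* were not called in any of the 9 fits that left out a library or an experiment, and *AXL* was not called in 8 of them.

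The list of Hippo and YAP targets also holds members of the pathway itself, such as *YAP1*, *LATS1* and *TEAD1*. Of its 26 tested genes, 8 were called lower (30.8%) and 2 higher (2 higher and 1 lower without the block, 4 without experiment 3). *ANKRD1* had 40, 28.1 and 29.2 CPM with vehicle and 20.9, 13.9 and 16.4 CPM with RGZ (log2 fold change -0.92, SE 0.10, adjusted p = 4.49e-06) and *F3*, tissue factor, 33.8, 25.8 and 21.7 CPM with vehicle and 19.5, 11.1 and 10.6 CPM with RGZ (log2 fold change -0.99, SE 0.12, adjusted p = 1.96e-05). *CCN2* (-0.38), *CCN1* (-0.28) and *PTPN14* (-0.45) fell by less, and *DLC1* and *AMOTL2* (0.39) were the members that rose. Of 32 Wnt genes 10 were called lower (31.2%) and 4 higher (0 higher and 2 lower without the block, 9 without experiment 3). Beside *DKK3*, the receptor gene *FZD2* had 43.6, 50.9 and 33.7 CPM with vehicle and 30.8, 33.3 and 21.3 CPM with RGZ (log2 fold change -0.59, SE 0.08, adjusted p = 5.65e-05). *DKK1* (-0.36), *TLE4* (-0.42), *LEF1* (-0.32), *FZD1*, *FZD7*, *LGR4*, *LGR6* and the ligand gene *WNT5A* also fell. *SFRP1* (0.44), *TLE3* (0.53), *TCF7L2* (0.42) and *FZD5* (0.64) rose. In Notch signalling only the ligand gene *JAG1* was called among 24 (12.5, 15.7 and 19.7 CPM with vehicle and 23, 40.2 and 33.6 CPM with RGZ, log2 fold change 1.01, SE 0.12, adjusted p = 1.30e-05, 0 called without the block and 1 without experiment 3), and *HES1* (0.10) and *HEY1* (-0.59, adjusted p = 0.117) were not.

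Of 43 S-phase genes, *BRIP1* was called lower (-0.29, 0 called without the block and 0 without experiment 3), and *MCM5* (0.01) and *PCNA* (0.01) were not called. Of 53 genes of G2 and mitosis, *HMGB2* (-0.23), *CENPF* (-0.29), *CBX5* (-0.26) and *KIF11* (-0.22) were called lower (0 called without the block and 0 without experiment 3). The median of this list was -0.09 and 43 of 53 log2 fold changes were negative, *MKI67* (-0.12) and *CCNB1* (-0.05) included. Among 30 cyclins, CDKs and their inhibitors, *CDK6* had 253, 200 and 242 CPM with vehicle and 177, 144 and 171 CPM with RGZ (log2 fold change -0.50, SE 0.06, adjusted p = 1.05e-05), *CCND1* (-0.22), *WEE1* (-0.37), *CDKN2C* and the CDK inhibitor gene *CDKN1C* (-0.64) fell, and *E2F1* rose (0.34) (0 higher and 1 lower without the block, 1 without experiment 3). *CDKN1A* was not called (0.09, adjusted p = 0.543). Of 24 p53 targets, *PHLDA3* (74.3, 80.6 and 80.4 CPM with vehicle and 146, 171 and 148 CPM with RGZ, log2 fold change 0.98, SE 0.09, adjusted p = 6.86e-07), *PERP* (0.24) and *TNFRSF10A* (0.34) rose (1 called without the block and 1 without experiment 3), while *MDM2* (-0.04) and *GDF15* (-0.05) were not called. In the BCL2 family the anti-apoptotic *MCL1* rose (0.32) and the pro-apoptotic *BMF* fell from low counts (1.7, 1.78 and 1.77 CPM with vehicle and 0.832, 0.457 and 0.508 CPM with RGZ, log2 fold change -1.52, SE 0.33, adjusted p = 0.00553) among 18 tested (0 higher and 1 lower without the block, 0 without experiment 3). *BCL2* (0.08) and *BCL2L11* (-0.16) were not called.

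In the lists of stress and protein quality genes most members were not called, while in some lists most log2 fold changes were positive. Of 43 antioxidant and NRF2 target genes 7 were called higher (16.3%) and 2 lower (0 called without the block and 3 without experiment 3), and 35 of 43 log2 fold changes were positive. *MGST1*, a membrane glutathione transferase, had 94.1, 173 and 76.4 CPM with vehicle and 159, 284 and 126 CPM with RGZ (log2 fold change 0.73, SE 0.06, adjusted p = 4.80e-07), *HMOX1* (0.54) and *AKR1B1* (0.55) rose, *GPX8* fell (-0.30), and the classical NRF2 target *NQO1* was not called (-0.07). The ATF4 list had 1 of 33 higher, *ATF3* (0.50), and 4 lower, *PSAT1* (-0.24), *PHGDH* (-0.21), *SLC7A11* (-0.37) and *NUPR1* (-0.65) (0 called without the block and 0 without experiment 3), with *ATF4* (0.16) and *ASNS* (-0.14) not called. In the endoplasmic reticulum list of 31, *HSPA5* (0.23), *XBP1* (0.22) and *HSP90B1* (0.16) rose slightly beside *CREB3L3*, and *ERO1B* fell (-0.49) (1 higher and 0 lower without the block, 1 without experiment 3). Of 26 heat shock proteins and chaperonins, *HSPA1A* (0.45) and *HSPA1B* (0.40), which are near-identical copies, and *TCP1* (0.19) and *HSPD1* (0.16) rose (0 called without the block and 1 without experiment 3), and *HSPA8* did not pass the test (0.08). All 31 proteasome genes had a positive log2 fold change, with a median of 0.13, but only *PSMD2* (0.33) and *PSMB2* (0.20) were called (1 called without the block and 1 without experiment 3), and *PSMA1* (0.06) and *PSMB5* (0.15) were not. In lysosome and autophagy, *SQSTM1*, an autophagy receptor, had 525, 743 and 534 CPM with vehicle and 858, 1283 and 857 CPM with RGZ (log2 fold change 0.73, SE 0.07, adjusted p = 6.93e-07), *CTSL* (0.62), *NEU1* (0.35) and *PSAP* (0.18) rose and *ULK2* fell (-0.59) among 46 (1 higher and 0 lower without the block, 2 without experiment 3). *CTSD* was not called (-0.01).

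*STC1* (0.80) rose and *EGLN3* (-1.25) fell among 27 hypoxia genes (0 called without the block and 0 without experiment 3). *CA9* was not called (0.08). The metallothionein list had 3 tested members, *MT1X*, *MT2A* and the transcription factor gene *MTF1*. Only *MT1X* was called (13.7, 17.7 and 13.9 CPM with vehicle and 8.63, 8.45 and 8.22 CPM with RGZ, log2 fold change -0.84, SE 0.13, adjusted p = 3.29e-04, 1 called without the block and 1 without experiment 3), and *MT2A* lay just outside the threshold (-0.33, adjusted p = 0.051). Reads of *MT1X* and *MT2A*, short genes with similar relatives, may have been shared between copies. *ARRDC2* was called higher (0.31) among 6 alpha-arrestin and MLX genes (0 called without the block and 0 without experiment 3), and *ARRDC4* (-0.45) and *MLX* (0.12) were not. None of 76 ribosomal protein genes was called over the 12 libraries by edgeR, DESeq2 or limma-voom, and 12 had an unadjusted p-value under 0.05. The number was 51 in the fit of the 6 RGZ and vehicle libraries alone, 3 without experiment 2 and 4 with no filter on low counts. Their median was 0.14 with 74 of 76 positive, as for *RPLP0* (0.15) and *RPS6* (0.15).

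The summed level of 6 adipocyte markers was 1.59 to 3.57 CPM with vehicle and 170 to 407 CPM with RGZ, and nearly all of the latter was *FABP4*. *ADIPOQ* had no count in any of the 6 libraries and *PLIN1* and *LEP* had at most 3 counts. Markers of melanoma lines (*CSPG4*, *MCAM*, *VIM* and *S100A6*) summed to 5704 to 6737 CPM with vehicle and 6511 to 7732 CPM with RGZ. Among melanocyte markers *TYR* had no count, *MLANA* was at or under 0.681 CPM and *PMEL* at or under 1.53 CPM, while *SOX10* was at 178 to 425 CPM, *MITF* at 24.4 to 56.6 CPM and *S100B* at 6.62 to 38.5 CPM. The other lists of markers were at 86.3 to 114 CPM for keratinocytes, 11.4 to 35.8 for fibroblasts, 2.91 to 8.35 for endothelial cells and 1.02 to 2.62 for immune cells over the 6 libraries, where *KRT1* and *CD3E* had no count.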

How the data were processed

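RNA of A375 cells was made into libraries with the TruSeq RNA kit, per the labels, which does not mark strand in its standard form. The authors deposited raw read counts per gene, 1 column a library and 1 row an Entrez identifier, for 12 libraries (3 independent experiments of 4 conditions). The submitters' processing notes name hg19. The aligner, counting program, annotation and strand setting are not given in the sources used here, so reads of near copies and of overlapping genes cannot be told apart. Symbols came from a RefSeq table (GRCh38.p14), which matched 23538 of 23705 rows and 13486 of 13522 tested genes, and no coordinates of it were used beside the promoters. Columns of other samples numbered 0.

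Counts were fitted with edgeR 4.0.16 in R 4.3.3 (TMM scaling, filterByExpr, quasi-likelihood F test, Benjamini-Hochberg over all tested genes, threshold 0.05) with condition and experiment number as terms over all 12 libraries, which share the estimate of the spread. Each SE is the log2 fold change over the square root of F. Ratios within an experiment used log2 CPM with a prior count of 2. The samples were paired because the series' design has each numbered experiment hold every condition. Same-numbered RGZ and vehicle libraries had deviations from the mean of their condition correlated at 0.393 to 0.743. The average of -0.29 for different experiments follows largely from that centering and adds no separate evidence. Experiments were separate cultures of the same line. The script was tested on simulated counts with known changes.

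Genes named are the 12 largest increases and decreases among called genes that averaged 5 CPM or more and moved 1 way in every experiment (without *FABP4*, *ANGPTL4*, *CPT1A* and *TXNIP*), up to 4 called members per list and direction by lowest p, the first 2 genes of each list, up to 2 per family and marker genes. Some genes that meet this rule are counted in their lists but not reported here by name. Other called members, *PPARG* and genes with low counts were named after their values were seen. Members and lists were chosen with earlier results of these data known. Alternatives were the fit without the block, DESeq2 1.42.0 and its size factors, limma-voom 3.58.1, other filters, a threshold of 0.01, thinning to the smallest total, the 6 libraries alone, and leaving out each library or experiment. The depth of 8319455 to 10096418 counts limits precision for genes near the floor of 3 counts. Exact 95% intervals cover counting error only.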

Additional observations from a re-analysis of the deposited data

How the results depend on the processing

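Numbers called depended most on the pairing. With the replicate block 1258 genes were called, and without it 167, 128 higher and 39 lower. With only the 6 RGZ and vehicle libraries, 2758 were called, 1504 higher and 1254 lower. At a threshold of 0.01 the numbers were 696, 403 and 293, and DESeq2 called 896, of which 387 were lower. Leaving out a library or an experiment gave between 400 and 1091 called genes, 258 to 569 higher and 142 to 529 lower, and the lowest of each came without experiment 3. The share of called genes that were higher was 53.3% with the block, 76.6% without it and 64.5% without experiment 3. With DESeq2's size factors (1255 called), limma-voom (1220), a mean of at least 1 CPM (1242), no filter (1465) and thinning (1202), the counts moved by less than 1.5 times. Of 268 named genes that were called, 71 were called without the block, 153 without experiment 3 and 66 under every alternative, and no direction reversed. *CDH2*, *DUSP6*, *HSPD1*, *PDHX*, *PSAP* and *SOX2* were not called in any of the 9 fits that left out a library or an experiment. At this depth, genes with a few counts per library, such as *CD36*, have folds known only within wide intervals. What sets experiment 3 apart was not tested.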

Other observations

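Families defined by the start of the symbol, described with no test, gave further members beside the IL, COL, ARHGAP and ARHGEF symbols. Of 37 genes with CD symbols, 7 were called higher (18.9%) and 2 lower, against 4.95% and 4.35% of all tested genes. *CD55*, which protects cells from complement, had 50.1, 114 and 54.2 CPM with vehicle and 67.1, 214 and 87.4 CPM with RGZ (log2 fold change 0.69, SE 0.08, adjusted p = 1.35e-05 in edgeR's quasi-likelihood test). Experiment 2 was highest in both conditions, the groups overlapped, and without the block the adjusted p was 0.66. *CD9*, a tetraspanin, rose by 0.41 (SE 0.06), *CD59*, *CD68* and *CD276* rose too, and *CD44* and *CD70* fell. Of 31 genes with MIR symbols, which hold host transcripts of microRNAs, 4 were called higher (12.9%) and none lower. *MIR22HG* had 31.8, 31.3 and 31.7 CPM with vehicle and 42.1, 45.7 and 45.6 CPM with RGZ (log2 fold change 0.49, SE 0.08) and was also called without the block, while *MIR100HG* (0.45) was not. Mature microRNAs were not measured by these libraries.

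Among 42 TRIM symbols, 3 were called lower (7.14%) and 2 higher (4.76%, *TRIM25* and *TRIM6*). *TRIM2*, a ubiquitin ligase, had a log2 fold change of -0.84 (SE 0.10, 39.2, 37.6 and 50.6 CPM with vehicle and 24.1, 19.4 and 27.5 CPM with RGZ), and *TRIM62* fell by less (-0.47). ANKRD symbols had 3 of 42 lower (7.14%) and *ANKRD55* higher (2.38%), with *ANKRD28* (-0.33) and *ANKRD2* (-0.89) beside *ANKRD1* among those that fell. KIAA symbols had 10% of 20 called in each direction, with *KIAA1755* (-1.02) and *KIAA0513* (-0.53) lower and *KIAA0040* and *KIAA1217* higher. Solute carriers, the transporters of the SLC symbols, had 18 of 245 called higher (7.35%) and 15 lower (6.12%), shares near those of all tested genes. Zinc finger genes with ZNF symbols were the largest of these groups with 475 tested, and 2 were called higher (0.421%) and 10 lower (2.11%).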
